A study of Homo sapiens with 4 samples.

Results

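The microRNAs described here are those embedded in the HOX gene clusters under the names miR-10a, miR-10b, miR-196a and miR-196b, in either arm. They were chosen by assay name alone, which gave 7 of the 737 miRNA assays measured: hsa-miR-10a, hsa-miR-10a*, hsa-miR-10b, hsa-miR-10b*, hsa-miR-196a, hsa-miR-196b and hsa-miR-196b*. The prefix is left off below, and the star marks the less abundant arm of a hairpin in the older naming. The assays were quantitative PCR reactions on a pair of 384-well plates, panel I and panel II, run on total RNA of U2OS, a human osteosarcoma cell line. All 4 samples were U2OS. The shDDX1 sample carried a lentiviral short hairpin RNA against DDX1, an RNA helicase of the DEAD-box family, and the shNS sample carried a control short hairpin RNA; both were selected with puromycin at 2 ug/ml. The NCS sample was exposed to neocarzinostatin, an enediyne that breaks DNA, for 6 h at 500 ng/ml, and the untreated sample was not. The study's title concerns DDX1 in the processing of primary miRNAs, the step that cuts the hairpin out of its transcript.

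Each group held 1 sample, so no p-value was computed and no difference below has a replicate check. A Ct is the cycle at which a well crosses the detection threshold, so a lower Ct means more of the miRNA. A level is minus the Ct after each sample was centred on the mean Ct of the miRNA wells that read under 35 in all 4 samples, 67.4% of them. That mean was 26.1 in shDDX1, 25.8 in shNS, 29.4 in NCS and 30.1 in untreated cells, so ratios were taken within a pair. A log2 ratio is a difference of levels, was read only where both Ct values were under 35, and is called at 2-fold. Assays present on both panels gave a technical SD of the log2 ratio of 0.38 for shDDX1 over shNS and 0.79 for NCS over untreated (n = 7 assays each). The 7 were miR-103, miR-191, miR-423-5p, U6, SNORD38B, SNORD49A and the spike-in UniSp6 CP. The miRNAs among them are in wells H2, J2 and F2 of each panel, so they do not measure differences between plate regions. Markers of mesenchymal cells were under Ct 35 in 6 of 6 assays of every sample, with miR-21 earliest at 17.2 in shDDX1, 16.6 in shNS, 19.7 in NCS and 23.4 in untreated cells. Pluripotent cell markers were under 35 in 5 of 5 assays in shDDX1, 5 in shNS, 3 in NCS and 0 in untreated cells. Blood cell markers were under 35 in 5 of 5 assays in shDDX1, shNS and NCS and in 4 in untreated cells, none earlier than 25.7. Neuron markers were under 35 in 3 of 3 assays of every sample, and miR-128 among them read Ct 21.1 in shDDX1, 18.5 in shNS, 25.2 in NCS and 29.4 in untreated cells. Muscle markers were under 35 in 4 of 4 assays in shDDX1 and in shNS, 3 in NCS and 1 in untreated cells, and the 1 liver marker, miR-122, in every sample. Of all 740 miRNA wells, 723 were under 35 in shDDX1, 732 in shNS, 591 in NCS and 521 in untreated cells. A reading under 35 was thus common to most assays, and no cell type is read from these counts. The part of other cell types in these values was not tested. The mRNAs that define U2OS, DDX1 and the HOX genes themselves were not on these panels.

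HOX genes encode transcription factors that give cells their position along the body axis, and cells in culture commonly keep the HOX pattern of their origin. The miR-10 and miR-196 genes lie between HOX genes and are expressed along the axis with their neighbours. Several HOX mRNAs are known targets of these miRNAs: miR-196 directs cleavage of HOXB8 mRNA through a nearly perfect site, and miR-10b represses HOXD10, a relation studied in breast cancer cells. The strand that enters Argonaute pairs with targets mainly through its seed, bases 2 to 8.

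In RefSeq (GRCh38.p14), mature sequences were matched for 6 of the 7 assays, all but miR-10b. MIR10A lies on the minus strand at chr17:48579838-48579947 inside the span of HOXB3, 1487 bases from HOXB4. MIR196A1 lies on the same strand at chr17:48632490-48632559, 52542 bases from MIR10A and 6131 bases from HOXB9. MIR196A2 is in the HOXC cluster on the plus strand at chr12:53991738-53991847, 1458 bases from HOXC10 and 8313 from HOXC9. MIR196B is in the HOXA cluster on the minus strand at chr7:27169480-27169563, 1041 bases from HOXA10 and 3942 from HOXA9. MIR10B is in the HOXD cluster on the plus strand at chr2:176150303-176150412, 1137 bases from HOXD4. The members therefore sit in all of the HOX clusters, A, B, C and D, and the miR-196a assay reads the product of both a HOXB and a HOXC hairpin.

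The 6 matched mature sequences are shown 5′ to 3′ with the seed in capitals, because likeness between members bears on what each assay can tell apart.
miR-10a: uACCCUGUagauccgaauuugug
miR-196a: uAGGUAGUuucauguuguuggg
miR-196b: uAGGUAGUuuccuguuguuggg
miR-10a*: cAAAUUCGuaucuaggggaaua
miR-10b*: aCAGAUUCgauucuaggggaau
miR-196b*: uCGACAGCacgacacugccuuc
miR-196a and miR-196b share their seed and differ by a single substitution, A12C, counted from the 5′ end with the miR-196a base first. Among 2370 mature names in the RefSeq table, the seed AGGUAGU was carried by these 2 only. How far either assay reads the other sequence was not tested. miR-10a and miR-10b are likewise known to be nearly identical, and cross-reading between their assays was not tested either. The star strands of the miR-10 hairpins share a run of 11 bases, which starts at base 11 in miR-10a* and at base 12 in miR-10b*. Their seeds differ.

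The hairpins are shown because they are what the Drosha complex cuts, with the measured mature strands in capitals. The miR-196a hairpins give the same mature strand from different surroundings.
MIR10A: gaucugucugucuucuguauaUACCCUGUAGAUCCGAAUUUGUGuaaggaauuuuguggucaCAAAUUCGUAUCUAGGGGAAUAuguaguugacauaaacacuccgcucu
MIR196A1: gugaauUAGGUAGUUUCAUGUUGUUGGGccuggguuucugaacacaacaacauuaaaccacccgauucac
MIR196A2: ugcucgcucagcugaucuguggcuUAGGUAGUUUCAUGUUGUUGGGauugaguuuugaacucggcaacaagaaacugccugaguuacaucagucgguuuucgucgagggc
MIR196B: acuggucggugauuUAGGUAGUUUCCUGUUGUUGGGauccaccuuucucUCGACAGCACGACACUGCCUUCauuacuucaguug
In each of these 4 hairpins the guide strand lies in the 5′ arm. In MIR10A 18 bases separate the measured arms, and in MIR196B 13.

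miR-196a varied most among the members that were read under Ct 35 in all 4 samples. It read Ct 23.5 in shDDX1, 22.0 in shNS, 25.2 in NCS and 30.8 in untreated cells. The untreated sample stands apart: there 35.1% of all assays read earlier than miR-196a, against 13.8% in shDDX1, 9.23% in shNS and 8.28% in NCS cells. Its level was 2.60 in shDDX1, 3.81 in shNS, 4.21 in NCS and -0.66 in untreated cells. In increasing order this runs untreated, shDDX1, shNS, NCS, with gaps of 3.26, 1.21 and 0.40. The first and last gaps lie between samples of different pairs, and the technical SDs do not measure such differences. The gap of 1.21 lies within the shDDX1 and shNS pair, whose technical SD was 0.38.

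miR-196b, which differs from it by 1 base, had another order of levels. It read Ct 23.2 in shDDX1, 23.6 in shNS, 25.8 in NCS and 26.2 in untreated cells. Its levels in increasing order were 2.18 in shNS, 2.92 in shDDX1, 3.56 in NCS and 3.91 in untreated cells, with NCS and untreated 0.35 apart, inside the technical SD of their pair. In the untreated sample, where miR-196a was lowest, miR-196b was thus at its highest. The Ct of miR-196a minus that of miR-196b was 0.32 in shDDX1, -1.63 in shNS, -0.66 in NCS and 4.56 in untreated cells, a difference that needs no centring. It spanned 6.19 cycles over the 4 samples. miR-196a is in well D13 and miR-196b in well M4 of the same plate, and plate regions also moved apart: the wells around D13 read a median of 6.02 cycles later in untreated cells than in shNS, and those around M4 3.78 cycles later.

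**Figure D1:**
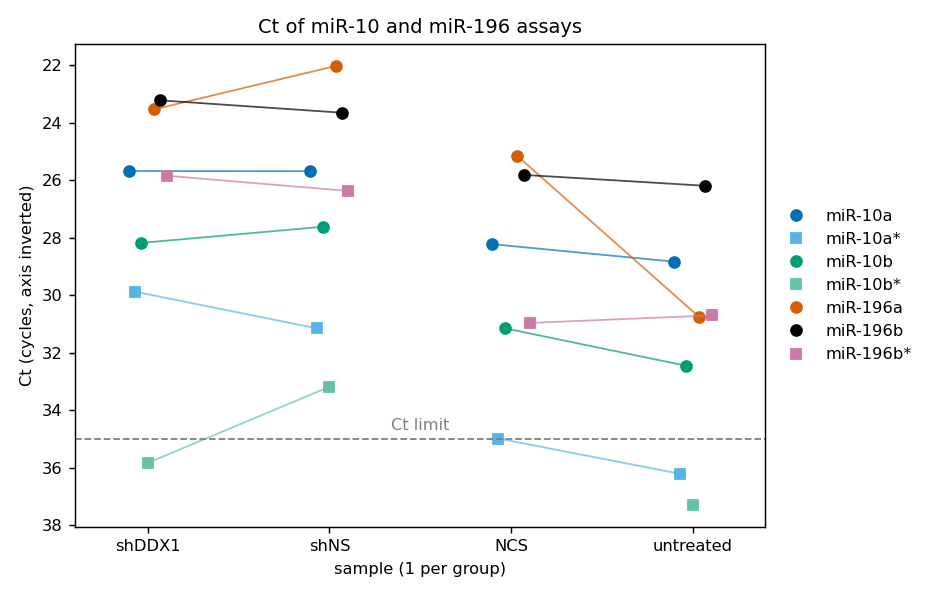
Ct of the 7 miR-10 and miR-196 assays in each of the 4 samples (1 per group), on an inverted axis so that more miRNA is higher. Circles are guide strands, squares star strands, lines join the samples of a pair, and the dashed line is the Ct limit of 35. miR-196a falls out of order in untreated cells, at Ct 30.8, while miR-196b stays at 26.2, and miR-10b* has no Ct in NCS cells.

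miR-10a, from the HOXB cluster, read Ct 25.7 in shDDX1, 25.7 in shNS, 28.2 in NCS and 28.8 in untreated cells. Its levels were 0.15 in shNS, 0.46 in shDDX1, 1.14 in NCS and 1.27 in untreated cells, in increasing order, and the samples of each pair lay 0.31 and 0.13 apart, inside the technical SD of that pair. Over the 4 samples its levels spanned 1.12, and with each panel centred separately they ran from -1.27 in shNS to 0.59 in untreated cells. The share of assays reading earlier was lowest in untreated cells, at 20.4%, and highest in shNS, at 31.3%. miR-10b, from the HOXD cluster, read Ct 28.2 in shDDX1, 27.6 in shNS, 31.1 in NCS and 32.5 in untreated cells. Its levels were -2.36 in untreated, -2.04 in shDDX1, -1.79 in shNS and -1.78 in NCS cells, a span of 0.57 that is smaller than the NCS technical SD. The Ct of miR-10b exceeded that of miR-10a by 2.50 in shDDX1, 1.93 in shNS, 2.93 in NCS and 3.62 cycles in untreated cells. A Ct gap between different assays also contains their primer efficiencies, so only its change between samples is comparable.

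The star strands read later than their guides in every sample where both had a Ct. miR-10a* read Ct 29.9 in shDDX1, 31.2 in shNS, just under 35 in NCS and 36.2 in untreated cells. miR-10b* read Ct 35.8 in shDDX1, 33.2 in shNS and 37.3 in untreated cells, and was undetermined in NCS cells. miR-196b* read Ct 25.8 in shDDX1, 26.4 in shNS, 31.0 in NCS and 30.7 in untreated cells, with levels in increasing order of -1.60 in NCS, -0.60 in untreated, -0.54 in shNS and 0.29 in shDDX1 cells. The star assays are all on panel II and the guides on panel I, so a gap between arms also holds the difference between plates. For miR-196b the guide led its star by 2.62 cycles in shDDX1 and 2.72 in shNS, against 5.15 in NCS and 4.51 in untreated cells. For miR-10a it led by 4.20 in shDDX1 and 5.47 in shNS, against 6.76 in NCS and 7.38 in untreated cells. In both MIR196B and MIR10A the arms lay closer in the pair of infected samples than in the NCS pair. For miR-10b, where the star was read late, the lead was 7.66 in shDDX1, 5.57 in shNS and 4.84 in untreated cells.

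Water wells limit how some of these values can be read. In shDDX1 and shNS the earliest water well of panel I read 27.3 and 27.8, close to miR-10b at 28.2 and 27.6. On panel II it read 26.5 and 26.6, earlier than miR-10a* and miR-10b* in both samples and close to miR-196b*. The part of this background in the values of these assays was not tested. Of 9 water wells, 0 gave a Ct in the NCS or the untreated sample.

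Knockdown of DDX1 was compared with the control hairpin to ask which miRNAs depend on the helicase. Of 6 members quantified in both samples, miR-196a was the 1 at least 2-fold lower in shDDX1, where 17.3% of all 716 quantified miRNAs were. miR-10a* was the 1 at least 2-fold higher, where 11% of all were. The other 4 were within 2-fold, and the median log2 ratio of the 6 was 0.52, beside 0.04 over all. With each panel centred separately 0 members were lower, against 15.6% of all, and 2 were higher, miR-10a* and miR-196b, against 7.82% of all. With 6 members, 1 in each direction is close to those shares, and nothing about the members as a group is read from it.

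miR-196a was 2.31-fold lower in shDDX1, a log2 ratio of -1.21, with 13.4% of quantified miRNAs lower still. The ratio is past the technical SD of 0.38, but it did not keep its size across scalings. With each panel centred separately it was -0.79, with plates set to their calibrator wells -0.76, and with column blocks of each panel centred separately -0.51. After subtraction of the median of the wells within 2 rows and 2 columns it turned to 0.37. Around D13, 15 of 24 miRNA wells were past 2-fold downward in shDDX1 and 0 upward. Their median log2 ratio was -1.58, so miR-196a was less low than the median of its plate neighbours. The part of plate position in this value was not tested further.

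miR-10a* was 2.99-fold higher in shDDX1, a log2 ratio of 1.58. It stayed above 0 in all of 9 scalings and at least 2-fold higher in 8 of them, with 0.91 against the small RNAs as the exception. Its readings, 29.9 in shDDX1 and 31.2 in shNS, were later than the earliest panel II water wells, at 26.5 and 26.6. None of the scalings takes out that background. Its guide miR-10a, from the same hairpin, had a log2 ratio of 0.31, inside the technical SD. The arms of MIR10A thus moved closer by 1.27 cycles in shDDX1. The panels as a whole differed in this comparison, where the median log2 ratio was -0.42 on panel I but 0.46 on panel II, and the wells around miR-10a* had a median of 0.50.

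Of the remaining members, miR-196b and miR-196b* came from the same hairpin and are on different panels. Their log2 ratios in shDDX1 over shNS were 0.73 and 0.83. With each panel centred separately they were at 1.16 and 0.40, so their closeness depended on the scaling. Both were above 0 in all 9 scalings, from 0.07 to 1.19 for miR-196b and from 0.17 to 0.83 for miR-196b*. miR-196b passed 2-fold in 2 of the 9, with each panel centred separately and with plates set to calibrators, and miR-196b* in 0. The gap between these arms changed by 0.10 cycles between shDDX1 and shNS, with the difference between panels included. miR-10b was at -0.26, inside the technical SD, and changed sign between scalings, as did miR-10a. miR-10b* had no ratio, since it read past the limit in shDDX1. Taken as a bound at Ct 35 it was at least 2.85-fold lower in shDDX1, or 3.85-fold with each panel centred separately, from a late reading of 33.2 in shNS. That reading is later than the earliest water well of panel II in shNS, at 26.6, so no change of the miRNA is read from the bound. In the authors' deposited table, which uses the reading past 35, the fold of miR-10b* was 0.159.

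**Figure D2:**
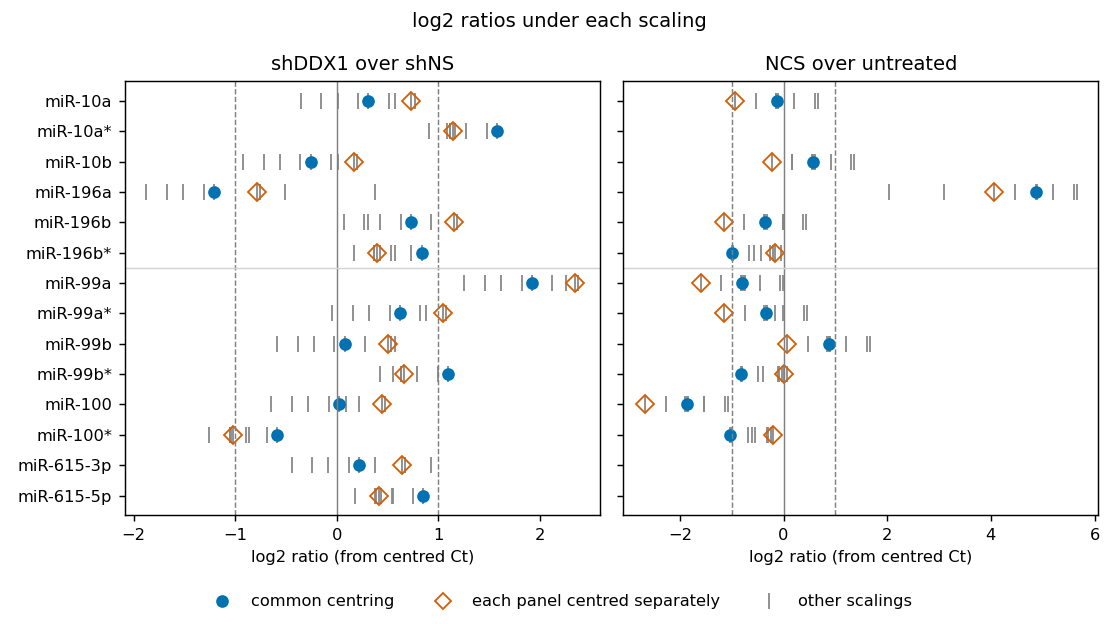
log2 ratios of the members (above the grey line) and of miR-99, miR-100 and miR-615 (below it), for shDDX1 over shNS on the left and NCS over untreated on the right, on separate horizontal scales. Blue circles are the common centring, orange diamonds each panel centred separately, ticks the other scalings, and dashed lines mark 2-fold. miR-196a after NCS lies above 2-fold in all 9 scalings, lowest at 2.02 with neighbouring wells subtracted. Its value in shDDX1 spreads from -1.88 to 0.37.

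Neocarzinostatin was compared with no treatment to ask how miRNAs respond to double-strand breaks in DNA. Of 5 members quantified in both samples, miR-196a was the 1 at least 2-fold higher, where 16.9% of all 498 quantified miRNAs were. Of the 5, 0 were at least 2-fold lower, where 22.3% of all were. The median log2 ratio of the 5 was -0.13, beside -0.38 over all. With each panel centred separately 1 member was higher, miR-196a, against 13.7% of all, and 1 was lower, miR-196b, against 20.5% of all.

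miR-196a was 29.2-fold higher in NCS cells, a log2 ratio of 4.87, with 97.2% of quantified miRNAs below it. It was at least 2-fold higher in all 9 scalings, from 2.02 after subtraction of neighbouring wells to 5.65 against the small RNAs. Only neighbour subtraction and the centring of column blocks, at 3.10, act on regions within a plate. The other scalings shift whole samples or whole plates. In the authors' deposited table its fold was 40.6. The ratio rests on the late reading of untreated cells: miR-196a read 8.73 cycles later in untreated cells than in shNS, and 1.62 cycles later in NCS cells than in shDDX1. Its plate neighbours behaved alike in direction. Of the 24 wells around D13, 13 were quantified in both NCS samples, 9 of these were at least 2-fold higher and 0 lower, with a median log2 ratio of 2.84 and a range of -0.68 to 6.12. Over those of the 24 wells under Ct 35 in both untreated and shNS cells, the median reading was 6.02 cycles later in untreated cells. The well of miR-196a is in columns 7 to 18, the middle of panel I, where the median log2 ratio after NCS was 1.21, against -0.15 in the outer columns. Loss of signal in these wells of the untreated sample and a true change cannot be told apart with 1 sample.

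**Figure D3:**
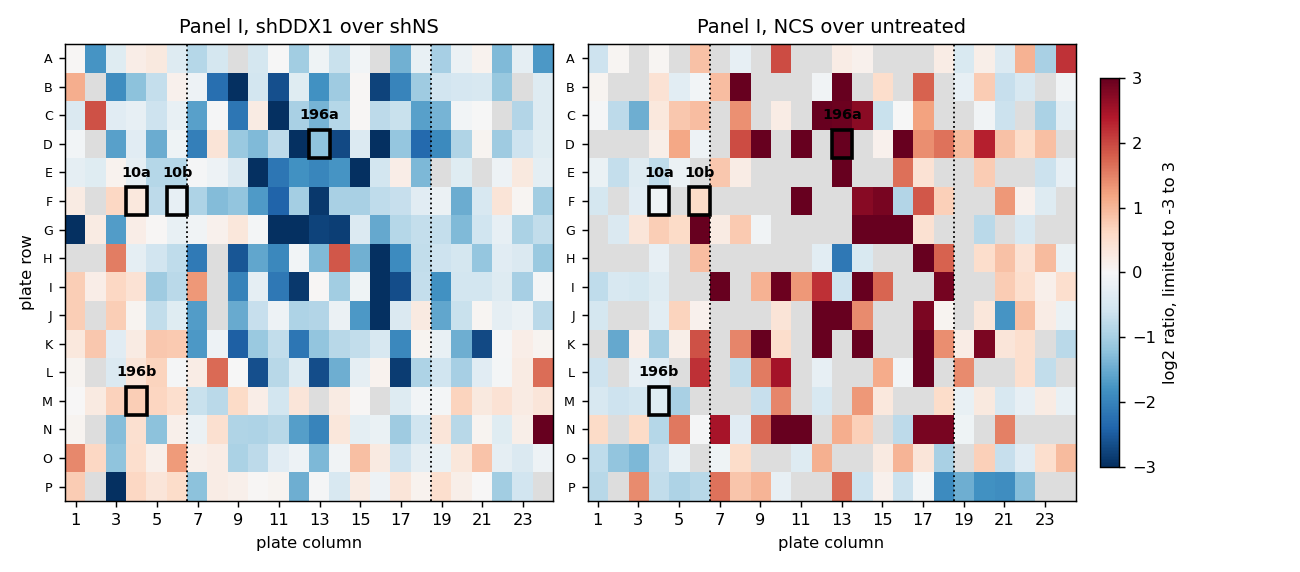
log2 ratio of each miRNA well of panel I by plate row and column, for shDDX1 over shNS on the left and NCS over untreated on the right, with colour limited to -3 to 3 and in grey the wells without a ratio, without a miRNA, or with a miRNA averaged over both panels. Dotted lines bound columns 7 to 18, and boxes mark the 4 guide strands. miR-196a sits among wells that are low on the left and high on the right, whereas miR-10a, miR-10b and miR-196b lie in outer columns.

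The other guide strands did not share the value of miR-196a. After NCS, miR-10a had a log2 ratio of -0.13, miR-10b 0.57 and miR-196b -0.35, each inside the technical SD of 0.79. A single repeated assay, miR-423-5p, gave 83.0% of the squared differences behind that SD, with a difference of 2.71 between its panels. All 3 guide strands changed sign between scalings, miR-10a from -0.93 to 0.66, miR-196b from -1.16 to 0.44 and miR-10b from -0.23 to 1.36. miR-196b was 2.23-fold lower with each panel centred separately, and miR-10b passed 2-fold upward in 2 scalings, against the small RNAs and without centring. miR-196b* was 1.99-fold lower in NCS cells, a log2 ratio of -0.995, and below 0 in all 9 scalings, but at -0.17 with each panel centred separately. The median of panel II was -0.84 after NCS. miR-10a* read under 35 in NCS cells alone, and too close to the limit for a bound above 1 under the common centring. miR-10b* was under 35 in neither sample.

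Because MIR196A2 and miR-615 both lie in the HOXC cluster, 42102 bases apart, the miR-615 assays were set beside miR-196a. MIR615 overlaps the spans of HOXC4 and HOXC5 and lies on the plus strand at chr12:54033950-54034045.
miR-615-3p: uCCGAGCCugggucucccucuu
miR-615-5p: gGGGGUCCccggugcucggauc
miR-615-3p read Ct 25.4 in shDDX1, 25.3 in shNS, 29.4 in NCS and 36.9 in untreated cells. It too was low in the untreated sample, and was at least 29.1-fold higher after NCS, and at least 16.7-fold when panels were centred apart. Its well, L7, is also in that plate's middle columns, and 8 of the 16 quantified wells around it were at least 2-fold higher after NCS. miR-615-5p, on panel II, read Ct 28.2 in shDDX1, 28.8 in shNS, 33.7 in NCS and 35.2 in untreated cells, at least 1.43-fold higher after NCS, or 2.54-fold with panels centred apart. The arms of MIR615 therefore shifted against each other by 6.01 cycles between NCS and untreated cells, readings past 35 included. In shDDX1 over shNS the log2 ratios were 0.22 for miR-615-3p and 0.85 for miR-615-5p, both within 2-fold. In both of these samples miR-615-5p read later than the earliest panel II water wells, at 26.5 and 26.6.

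miR-99a, miR-99b and miR-100 are relatives of miR-10 outside the HOX clusters, with a different seed. They are shown with the seed in capitals.
miR-99a: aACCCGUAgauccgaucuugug
miR-99b: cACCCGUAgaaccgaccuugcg
miR-100: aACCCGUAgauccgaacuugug
miR-10a shares a run of 11 bases with miR-100, of 10 with miR-99a and of 5 with miR-99b. Of the 6 assays of these relatives in either arm, 2 were at least 2-fold higher and 0 lower in shDDX1, where 11% of all were higher and 17.3% lower. Their median log2 ratio was 0.35, beside 0.04 over all. miR-99a was 3.79-fold higher, from Ct 22.7 in shDDX1 and 24.3 in shNS, and was at least 2-fold higher in all 9 scalings. miR-99b* was 2.14-fold higher, and within 2-fold in the other 8 scalings. The other log2 ratios were 0.62 for miR-99a*, 0.08 for miR-99b, 0.02 for miR-100 and -0.59 for miR-100*, all within 2-fold. miR-100* was at least 2-fold lower in 5 of the 9 scalings and miR-99a* at least 2-fold higher in 2. The readings of miR-100*, 28.3 in shDDX1 and 27.5 in shNS, were later than the earliest panel II water wells, at 26.5 and 26.6.

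After NCS 2 of the 6 relatives were at least 2-fold lower and 0 higher, where 22.3% of all were lower and 16.9% higher. Their median log2 ratio was -0.81, beside -0.38 over all, and counts this small are close to those shares. miR-100 read Ct 25.7 in NCS and 24.5 in untreated cells, 3.65-fold lower after NCS and at least 2-fold lower in all 9 scalings. Of the 9 quantified wells around its own, P21, 3 were at least 2-fold lower and 1 higher, with a median of -0.33. The 3 lower wells were in the same plate row: miR-31 at -1.46, miR-451 at -1.83 and miR-27b at -1.27. The part of plate position in the value of miR-100 was not tested. miR-100* was 2.03-fold lower, and within 2-fold in the other 8 scalings. The remaining log2 ratios were -0.79 for miR-99a, -0.34 for miR-99a*, 0.87 for miR-99b and -0.82 for miR-99b*. Of these, miR-99b passed 2-fold upward in 3 scalings, and miR-99a in 2 and miR-99a* in 1 downward. The relatives read between 2.49 and 5.01 cycles later in untreated cells than in shNS, against 8.73 for miR-196a, and those on panel I lie in its outer columns.

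let-7a shares a run of 7 bases with miR-196a, AGGUAGU, placed 1 base further along, at bases 3 to 9 instead of 2 to 8.
let-7a: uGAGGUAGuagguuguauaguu
Of the 9 let-7 and miR-98 guide strands, 4 were at least 2-fold lower and 0 higher in shDDX1, where 17.3% of all were lower and 11% higher. Their log2 ratios ran from let-7f at -2.57 to miR-98 at 0.23, with a median of -0.68. After NCS 7 were quantified, and 3 of these were at least 2-fold higher and 0 lower, where 16.9% of all were higher and 22.3% lower. These ratios ran from let-7g at -0.41 to let-7a at 7.71, with a median of 0.88. With each panel centred separately 3 were lower in shDDX1, against 15.6% of all, and after NCS 1 was higher, against 13.7%, and 2 were lower, against 20.5%. let-7f, in well H9, and let-7a, in well H17, lie in the middle columns of panel I, as miR-196a does. miR-196a lay within the range of this list in both comparisons.

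**Figure D4:**
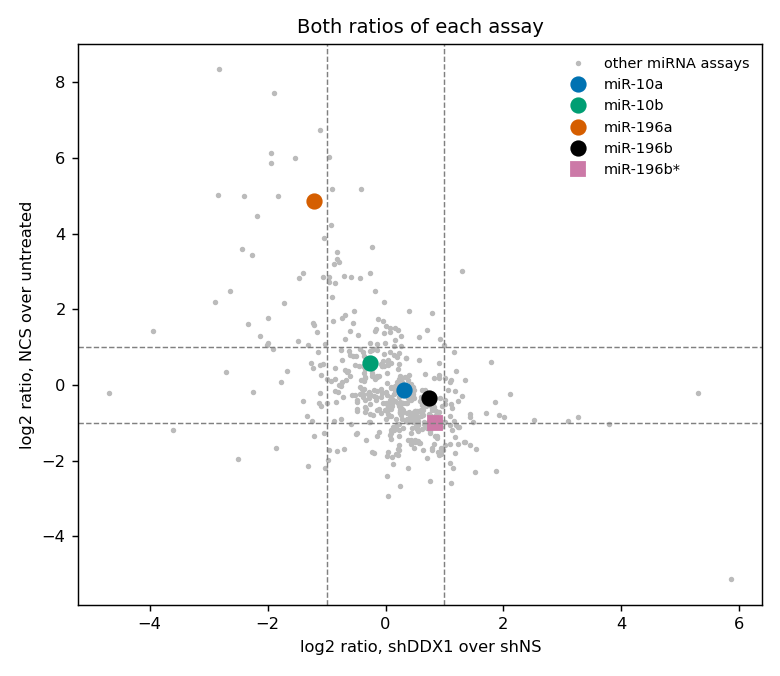
log2 ratio of NCS over untreated against that of shDDX1 over shNS for miRNA assays quantified in all 4 samples (494 of 496 within the axes), with 5 members coloured and dashed lines at 2-fold. miR-196a lies at -1.21 and 4.87, in the upper left, while miR-10a, miR-10b, miR-196b and miR-196b* lie within 2-fold in both directions.

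The pattern of each member over the 4 samples was compared with that of every other miRNA quantified in all of them, 495 assays, by the Euclidean distance between levels after each assay was centred on its own mean. The samples and plates are shared by all assays, so these are descriptions. miR-1979, miR-138 and miR-155 were nearest to miR-196a, at 0.31, 0.47 and 0.96, and the wells of all 3 are in columns 7 to 18 of panel I. They remained its 3 nearest with each panel centred separately. The 3 nearest to miR-196b were let-7f-2* at 0.10, miR-664 at 0.13 and miR-550a* at 0.15. Those nearest to miR-10a were miR-520f at 0.14, miR-564 at 0.17 and miR-26a-1* at 0.18, and those nearest to miR-10b were miR-301b at 0.28, miR-501-5p at 0.33 and miR-497 at 0.35. For miR-196b* they were miR-30c-1* at 0.16, miR-1909 at 0.23 and miR-1972 at 0.24. Centred per panel, 0 of the 3 were kept for miR-10a and miR-196b and 1 each for miR-10b and miR-196b*.

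Among the members, miR-10a and miR-196b were the closest pair at a distance of 0.44, and miR-196b was 35th nearest to miR-10a. Their genes are in different clusters, HOXB and HOXA, and their wells are F4 and M4, in the same plate column. miR-196a and miR-196b were the farthest apart of the 5 members quantified in all 4 samples, at 4.72, with wells in different regions of the plate, and miR-196a was 467th of 495 in nearness to miR-196b. miR-196a and miR-10a, whose hairpins MIR196A1 and MIR10A are neighbours in the HOXB cluster, were 4.37 apart. miR-10a and miR-10b were 1.24 apart.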

How the data were processed

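miRNA was measured by SYBR Green quantitative PCR on the Exiqon human panels in 4 U2OS samples, 1 per group, per the labels. The authors deposited Ct values per well, a table of shifted Ct values, and a linear fold (ratio) of each sample over its control. How the shift was made, the instrument and its threshold are not given in the sources used here. All ratios start from the Ct table. The 740 miRNA wells gave 737 assays after averaging those on both panels. Blank wells, small RNAs, spike-ins and bracketed names were left out, and 1 cycle was taken as 1 doubling.

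Members and lists were chosen with earlier results of these data known. Named with values were all members, miR-99a, miR-99b, miR-100 and miR-615 in either arm, the lowest and highest let-7 guide strands, and the 3 nearest patterns per member. The 9 scalings were mean and median centring, small RNAs (U6, SNORD38B, SNORD49A), reference miRNAs (miR-103, miR-191, miR-423-5p), no centring, each panel separately, calibrator wells, neighbouring wells subtracted, and panel with column block, the last chosen after seeing the data. Only neighbour subtraction and column blocks act within a plate, so a count over all 9 says little about plate regions. A bound sets the late sample at Ct 35. Sequences and gene neighbours are from RefSeq, GRCh38.p14. The arithmetic of the ratios was checked on simulated Ct values with planted shifts. These held no noise, undetermined wells or effects of plate region, so the check does not bear on those limits. Precision is limited by the single sample per group.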

Additional observations from a re-analysis of the deposited data

How the results depend on the processing

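The counts of members past 2-fold were 1 lower and 1 higher in shDDX1, and 1 higher and 0 lower after NCS. Lower in shDDX1 were 0 with each panel centred separately, with plates set to calibrators, with neighbouring wells subtracted, with panel and column block centred separately and at 4-fold, where 12.8% to 15.6% of all assays were lower in the first 4 of these, and 2, miR-10b* joining, with a Ct limit of 37 or no limit, where 17.9% and 18.5% were. Higher in shDDX1 were 0 against the small RNAs, where 3.35% of all were, and at 4-fold, 2 with each panel centred separately or plates set to calibrators, where 7.82% of all were, and 3 at 1.5-fold. Higher after NCS were 2, miR-10b joining, against the small RNAs, without centring and in the authors' deposited normalized and fold tables, where the share of all assays higher was 31.7%, 28.9%, 31.3% and 31.3%, against 16.9% under the common centring, so the count grew along with that of the whole array. Lower after NCS was 1 with each panel centred separately, miR-196b, where 20.5% of all were, and 1 at 1.5-fold, miR-196b*. The share of all assays past 1.5-fold or 4-fold was not computed, so nothing is read from the counts at those thresholds. The log2 ratio of miR-196a in shDDX1 turned to 0.37 after subtraction of neighbouring wells. The cause was not tested. Of the members' log2 ratios under the alternatives, 100 moved by less than the technical SD, 41 by more and 1 changed sign after being past 2-fold. For NCS that SD was 0.79 and rested mostly on miR-423-5p, so sizeable shifts are among the 100. An example is miR-10b after NCS, at 0.57 under the common centring and 1.36 against the small RNAs. Among the 100 are the Ct limits of 37, 32 and none, which decide only which ratios are read and cannot move one. The authors' normalized and fold tables, which gave nearly the same ratios, were counted separately. Median centring and a Ct limit of 32 changed none of the 4 counts. No paired analysis was possible because the groups hold single samples. Signal near Ct 35, and water wells that read earlier in shDDX1 and shNS, limit miR-10a* and miR-10b*.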
